A study of Mus musculus with 12 samples.

Results

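The genes described here encode the tubulins and the proteins that fold, modify, nucleate, bind and destabilise microtubules. They were chosen by symbol, and 70 of the 48440 features in the table of pillar and Deiters' cells carried such a symbol: the alpha, beta, gamma, delta and epsilon tubulins, the gamma-tubulin complex proteins, the Tbca to Tbce folding cofactors, the Ttll ligase family, the stathmins, the Tppp, Mapre, Clasp and Camsap families, and 9 structural microtubule-associated proteins. Of these, 61 had a mean above 0.1 RPKM in at least 1 cell type and were tested. RPKM is a read number divided by the transcript's length and by the depth of the lane, so that levels of different genes can be set side by side.

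Pillar cells and Deiters' cells are supporting cells of the organ of Corti, the sensory epithelium of the cochlea. Both were taken from CBA/J mice aged 28 to 32 days, and the labels name no genetic change or treatment in either group. Single cells were recognised by their shape after enzymatic digestion and drawn into a suction pipette, and each of the 3 libraries per cell type was made from about 1000 cells pooled from several mice. Each library was sequenced in 2 lanes, which are technical repeats of it and were averaged, and n is 3 libraries per cell type throughout.

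Microtubules are hollow tubes of alpha and beta tubulin dimers. In most cells they grow from a centrosome under the control of gamma tubulin, whereas pillar and Deiters' cells are known for dense, straight, parallel bundles of stable microtubules that run between the basilar membrane and the surface of the epithelium and stiffen the cell. The carboxy-terminal tail of each tubulin, which differs between isotypes, points outwards and carries the modifications of stable microtubules: removal or return of a final tyrosine, and side chains of glutamate or glycine added by the Ttll ligases.

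The ends of the coding sequences are shown because they hold this tail. By themselves they do not tell which isotypes can be told apart by their reads, which fall along the whole transcript. The sequences are the last 60 coding bases, stop codon included, of Tuba1c, Tuba4a and Tuba8 in GENCODE M21 on GRCm38, from 5′ to 3′ on the coding strand, with the codon before the stop in capitals.
Tuba1c: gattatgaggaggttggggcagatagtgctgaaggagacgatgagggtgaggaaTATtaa
Tuba4a: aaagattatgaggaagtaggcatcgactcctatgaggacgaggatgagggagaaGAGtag
Tuba8: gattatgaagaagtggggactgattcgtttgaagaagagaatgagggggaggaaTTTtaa
Tuba1c ended in a tyrosine codon. Tuba4a ended in a glutamate codon and Tuba8 in a phenylalanine codon, so that neither of these genes encodes the final tyrosine.

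Among the beta tubulins, Tubb2a and Tubb2b differed at 3 of the last 60 coding bases, which are in capitals in the first pair of lines. The ends of Tubb4b, the most abundant beta tubulin in these cells, and of Tubb3, the neuronal beta tubulin, are shown for contrast, with the last codon in capitals.
Tubb2a: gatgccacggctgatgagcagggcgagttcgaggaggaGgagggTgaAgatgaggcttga
Tubb2b: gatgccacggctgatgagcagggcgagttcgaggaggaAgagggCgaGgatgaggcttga
Tubb4b: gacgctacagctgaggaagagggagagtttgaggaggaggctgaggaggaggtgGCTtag
Tubb3: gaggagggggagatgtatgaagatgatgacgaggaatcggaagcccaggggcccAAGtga
Over the whole coding sequence, identity was 98.3% between Tuba1a and Tuba1b, 97.9% between Tuba1b and Tuba1c and 96.5% between Tubb2a and Tubb2b, with identical stretches of up to 281, 468 and 551 bases. Tuba8, in contrast, was 79.2% identical to Tuba1a, and Tubb3 was 82.0% identical to Tubb4b. Tuba1a (chr15:98949837-98953703), Tuba1b (chr15:98931425-98934565) and Tuba1c (chr15:99029891-99038110) lie side by side, as do Tubb2a (chr13:34074274-34078007) and Tubb2b (chr13:34126748-34130466). Tuba8 (chr6:121210696-121226854) and Tubb3 (chr8:123411424-123422015) lie apart from these clusters.

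Reads recovered from the RPKM steps came to between 18641354 and 21557584 per library, and 1 read in 1 kb of exon was worth about 0.052 RPKM. Defining markers of the labelled cell types did not separate the libraries cleanly. Together, 10 pillar cell markers summed to 887 to 925 RPKM in pillar libraries and 964 to 1014 RPKM in Deiters' libraries, and 9 Deiters' cell markers to 3556 to 3761 RPKM and 2752 to 2835 RPKM. Of the 9 pillar markers tested, 4 were called on the pillar side (44.4%) and 3 on the Deiters' side (33.3%), namely Cryab, Hey2 and Npy. Over all genes tested, 14.7% and 14.0% were called on these sides. Bmp2 passed the minimum described below only through pillar cells and Npy only through Deiters' cells. Without Cryab (344 and 746 RPKM), left out after its values were seen, the sum was 543 to 573 RPKM and 228 to 246 RPKM. S100b, which is also a marker of glia, made up most of that reduced sum. Without Ceacam16 (3113 and 2242 RPKM), also left out after its values were seen, the Deiters' markers summed to 512 to 536 RPKM and 524 to 563 RPKM. Among them, Jag1 and Lfng were called higher in pillar cells and Lgr5 in Deiters' cells. Pirt and Fgf20, both on the Deiters' list, were listed at 0 in all 6 libraries. Hair cell markers, 11 in number, summed to 1134 to 1171 RPKM in pillar libraries and 316 to 320 RPKM in Deiters' libraries. Of these, 10 were called higher in pillar cells (90.9%, beside 14.7% of all genes). Atp2b2 was called higher in Deiters' cells (9.09%, beside 14.0%).

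A gene was called higher in a cell type when limma, fitted to log2(RPKM + 0.1) of all genes above 0.1 RPKM, gave a Benjamini-Hochberg adjusted p no higher than 0.01 and the means on the log scale differed 2-fold or more. Log2 differences below are on this scale, with pillar minus Deiters' cells, and understate the change of genes near 0.1 RPKM. Of the 61 genes tested, 6 were higher in pillar cells (Map2, Map4, Ttll3, Ttll7, Tuba8 and Tubb6), which is 9.84% beside 14.7% of all 17188 genes tested. Another 9 were higher in Deiters' cells (Camsap2, Stmn2, Ttll9, Ttll11, Tuba1c, Tubb1, Tubb3, Tubd1 and Tubg2), which is 14.8% beside 14.0% of all genes. Of these 9, Tubb1, Ttll9 and Ttll11 passed the minimum only through Deiters' cells. The remaining 46 did not pass, and the median log2 difference was -0.30 over the 61 genes and 0.00 over all genes. At an adjusted p of at most 0.05 in limma with no fold minimum, 15 lay on the pillar side and 33 on the Deiters' side, beside 35.6% and 37.4% of all genes. In bulk samples, fewer cells of a type and less RNA per cell cannot be told apart, and no label says which libraries shared mice. With 3 libraries against 3, an exact permutation test of any single value cannot give a two-sided p below 0.1.

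**Figure D1:**
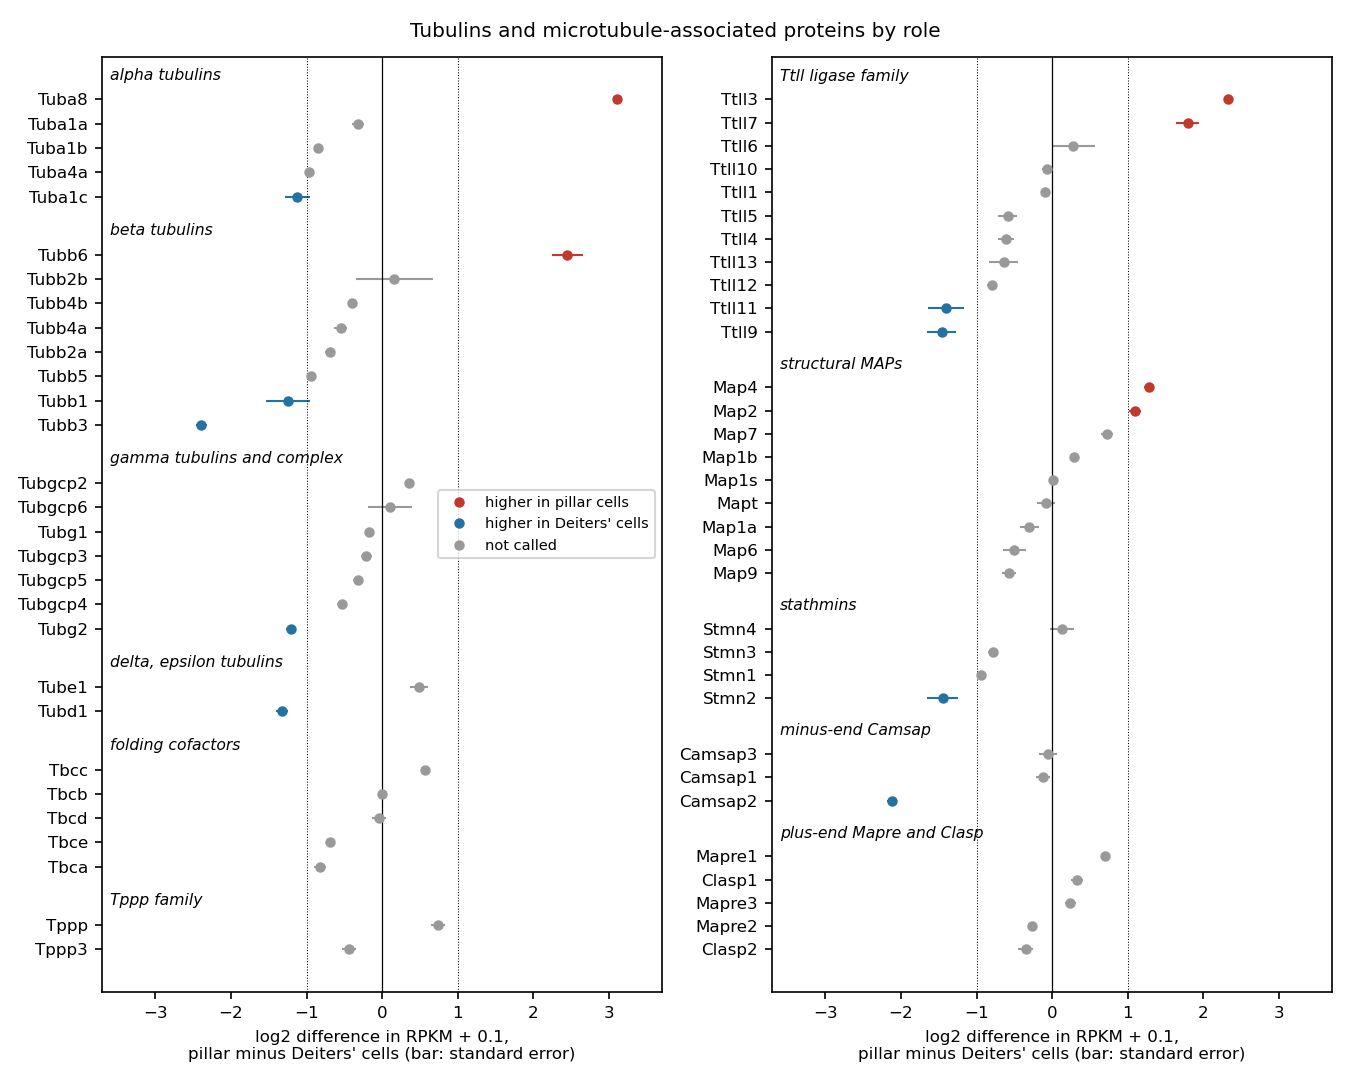
Log2 difference in RPKM + 0.1 between pillar and Deiters' cells for the 61 tested genes, grouped by role, with the standard error of the limma fit as bars and dotted lines at 2-fold. Most points lie left of 0, the 6 genes in red pass on the pillar side and the 9 in blue on the Deiters' side, and Tuba8 lies farthest right at 3.11.

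The RNA of the alpha tubulins was more abundant in Deiters' cells. Their 8 genes summed to 1060, 1039 and 1010 RPKM in the pillar libraries and 1602, 1552 and 1554 RPKM in the Deiters' libraries, a mean of 1036 ± 25.0 (SD, n = 3) against 1569 ± 28.4. The libraries did not overlap, and the sum was 1.51-fold higher in Deiters' cells. No test was run on sums. Tuba1a, Tuba1b and Tuba1c, the alpha tubulins of most cell types, made up 93.5% ± 0.144 of the alpha tubulin RNA in pillar cells against 95.3% ± 0.0141 in Deiters' cells. Tuba3a, Tuba3b and Tubal3 were listed at 0 in every library.

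Tuba1b, averaged over lanes, had 442, 408 and 427 RPKM in pillar libraries and 757, 745 and 806 RPKM in Deiters' libraries. All 3 Deiters' values lay above all pillar values, and the log2 difference was -0.85 ± 0.04 (SE; limma adjusted p = 6.5e-06), short of 2-fold. The gene ranked 99th of all features in pillar cells and 45th in Deiters' cells. Its place beside Tuba1a turned with the lane sets described below: in Deiters' cells Tuba1b was at 795 to 817 RPKM and Tuba1a at 540 to 571 RPKM in set A, but at 696 to 707 RPKM and 736 to 773 RPKM in set B.

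Tuba1a, which leads in developing neurons, had 494, 527 and 462 RPKM in pillar libraries against 672, 638 and 549 RPKM in Deiters' libraries. The highest pillar value lay just below the lowest Deiters' value, and the log2 difference was -0.32 ± 0.08 with a limma adjusted p of 0.012. Tuba1c had 55.1, 38.5 and 55.1 RPKM against 98.7, 96.4 and 126 RPKM. It was called higher in Deiters' cells with a log2 difference of -1.12 ± 0.17 (limma adjusted p = 0.001), but both genes moved between lanes of the same library, as described below with the lane sets, and the call of Tuba1c was lost within either lane set, without the second pillar library (log2 difference -0.95) and without the third Deiters' library (-0.99).

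Tuba4a, whose coding sequence lacks the final tyrosine codon, had 36.1, 35.8 and 34.7 RPKM in pillar libraries and 70.5, 68.9 and 69.0 RPKM in Deiters' libraries. These groups were tight and far apart, with a log2 difference of -0.97 ± 0.03 (limma adjusted p = 6.2e-07), just under 2-fold. Of its exon bases, 37.3% also lie in exons of Stk16 on the opposite strand. Stk16 itself had 15.7 to 16.7 RPKM in pillar libraries and 14.3 to 15.2 RPKM in Deiters' libraries, so it did not share the difference.

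Tuba8, a divergent alpha tubulin, went the other way. It had 32.5, 29.6 and 31.8 RPKM in the pillar libraries and 3.81, 3.49 and 3.34 RPKM in the Deiters' libraries. Every pillar library was far above every Deiters' library, and the mean was 8.83-fold higher in pillar cells (log2 difference 3.11 ± 0.06, limma adjusted p = 1.9e-07). Its share of the alpha tubulin RNA was 3.02% ± 0.155 in pillar cells against 0.226% ± 0.0113 in Deiters' cells. An annotated antisense gene, Gm15856, covers 16.3% of its exon bases. Gm15856 had 3.96 to 7.75 RPKM in pillar libraries and 0.0463 to 0.475 RPKM in Deiters' libraries, and without strand in the counting the reads of the 2 genes cannot be told apart where they overlap.

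The beta tubulins had the same order between cell types, with a sum of 354, 338 and 351 RPKM in pillar libraries and 506, 495 and 496 RPKM in Deiters' libraries, 1.44-fold higher in Deiters' cells. Tubb4b, the widespread beta tubulin of cilia and many epithelia, and Tubb2a together with Tubb2b made up most of it: 49.5% ± 0.0812 and 44.1% ± 0.399 in pillar cells, and 45.6% ± 0.258 and 46.5% ± 0.352 in Deiters' cells. Tubb4b had 175, 167 and 174 RPKM against 231, 227 and 225 RPKM. The groups did not overlap, and the log2 difference was -0.40 ± 0.03 (limma adjusted p = 2.0e-05). Tubb2a had 136, 116 and 134 RPKM against 201, 197 and 224 RPKM, a log2 difference of -0.69 ± 0.07 (limma adjusted p = 2.0e-04). Tubb5, the common beta tubulin of dividing cells, was at 14.8 ± 1.18 RPKM and 28.5 ± 1.07 RPKM (log2 difference -0.94), and Tubb4a, an isotype of brain, at 2.35 ± 0.189 RPKM and 3.48 ± 0.292 RPKM (log2 difference -0.55). Neither of these reached 2-fold.

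**Figure D2:**
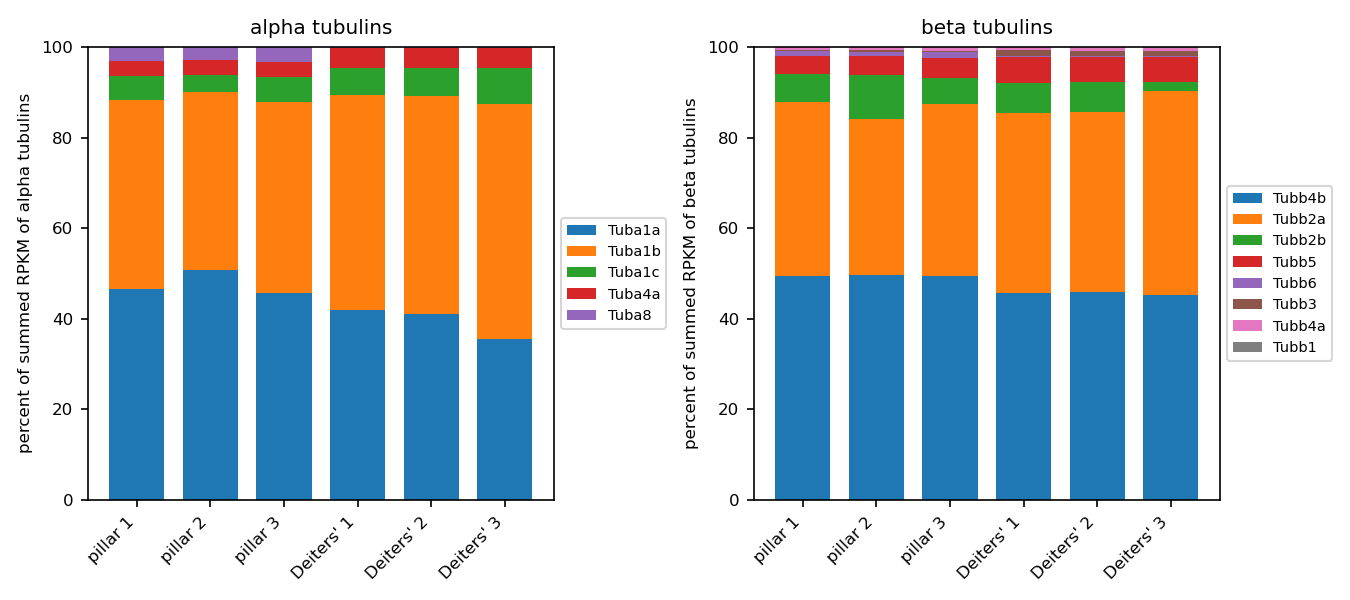
Share of each isotype in the summed RPKM of the alpha tubulins (left) and of the beta tubulins (right), 1 bar per library. Tuba8 takes 3.02% on average in pillar cells against 0.226% in Deiters' cells, and Tubb4b takes 49.5% and 45.6%; the split between Tuba1a, Tuba1b and Tuba1c and between Tubb2a and Tubb2b also moves with the lane sets described in the text.

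Tubb3, the class best known from neurons, had 1.09, 1.12 and 1.15 RPKM in pillar libraries and 6.75, 6.0 and 6.15 RPKM in Deiters' libraries. The pillar values were nearly equal and all far below the Deiters' values, with a log2 difference of -2.39 ± 0.07 (limma adjusted p = 8.3e-07). The 12 neuronal markers summed to 61.7 to 65.0 RPKM in pillar libraries and 73.1 to 76.5 RPKM in Deiters' libraries. Without Isl1 (36.8 and 23.3 RPKM), left out after its values were seen, they summed to 25.6 to 27.4 RPKM and 49.7 to 52.5 RPKM. Of the 9 that were tested, Nefl, Syn1 and Elavl4 were called higher in Deiters' cells (33.3%, beside 14.0% of all genes). Gap43 was called higher in pillar cells (11.1%, beside 14.7%). At an unadjusted p under 0.05 in limma, 7 lay on the Deiters' side, beside 38.3% of all genes. Rbfox3 was listed at 0 in pillar cells and had a mean of 0.0458 RPKM in Deiters' cells, and Prph was listed at 0 in both. With an antibody, the authors of these data saw TUBB3 protein in Deiters' cells and only weak staining in pillar cells. The part of neuronal RNA in the level of Tubb3 was not tested.

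Tubb6, a beta tubulin of many non-neuronal cells, was the mirror of Tubb3. It had 4.06, 3.43 and 4.31 RPKM in pillar libraries and 0.477, 0.591 and 0.886 RPKM in Deiters' libraries. The lowest pillar value was several times the highest Deiters' value, and the log2 difference was 2.45 ± 0.21 (limma adjusted p = 6.6e-05).

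Tubb1, the beta tubulin of platelets and megakaryocytes, had no reads in the pillar libraries and 8, 3 and 2 reads in the Deiters' libraries. With a floor of 3 reads over the 3 pillar libraries together, it was at least 4.26-fold higher in Deiters' cells. It was tested only because its Deiters' mean of 0.15 RPKM passed the minimum, and its call (log2 difference -1.25 ± 0.29, limma adjusted p = 0.0072) was lost when any 1 pillar library or the second Deiters' library was left out. Without the first Deiters' library it fell below the minimum. Platelet markers, 7 in number, summed to 11.0 to 14.1 RPKM in pillar libraries and 32.4 to 36.6 RPKM in Deiters' libraries. Of the 6 tested, Pf4, Ppbp and Gp9 were called higher in Deiters' cells (50.0%, beside 14.0% of all genes). The part of platelet RNA in the value of Tubb1 was not tested. Of the 2 pseudogenes of Tubb4b in the table, Tubb4b-ps1 was listed at 0 everywhere and Tubb4b-ps2 had a value in a single Deiters' library.

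**Figure D3:**
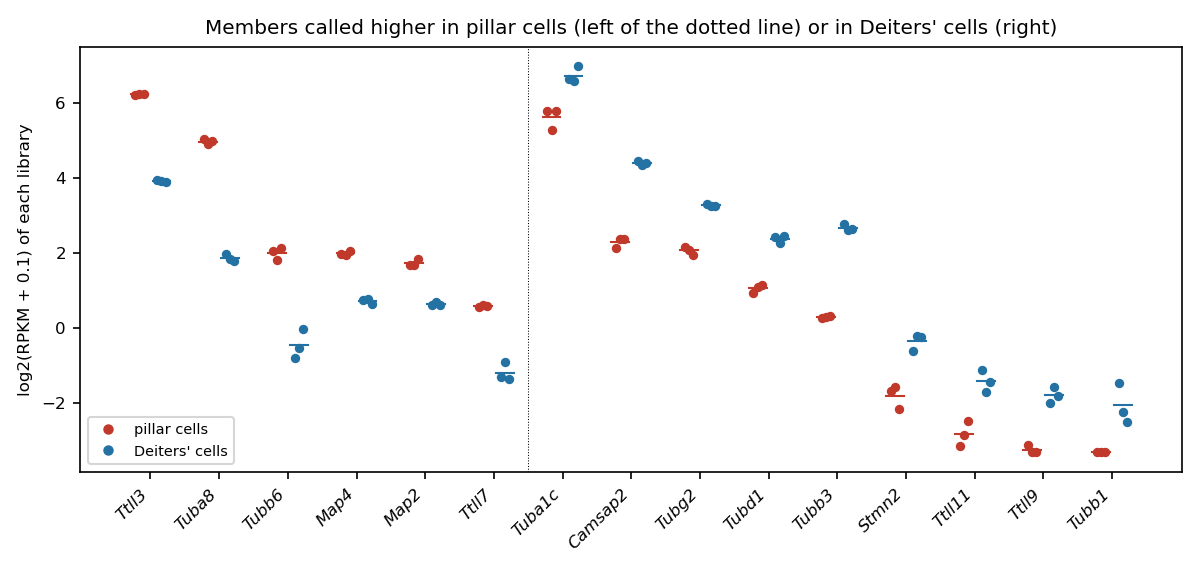
log2(RPKM + 0.1) of each library for the 15 called genes, with pillar libraries in red, Deiters' libraries in blue and the mean of each cell type as a line. The genes were chosen by their call in these libraries, so the lack of overlap between red and blue points adds no support. Tubb1 lies at the floor in all pillar libraries, and Tuba1c spans 38.5 to 55.1 RPKM in red and 96.4 to 126 RPKM in blue.

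A caution is needed because the lanes of these libraries were not alike for some genes. The 12 lanes fell into sets A and B of 6 lanes each by 778 genes that differed between lanes of 1 library, and 4 of the 6 libraries had a lane in both sets. The second pillar library had both lanes in set B and the third Deiters' library both lanes in set A, so the sets were not balanced between the cell types. Of the genes described here, 5 moved with the sets by more than 1.2-fold in the same direction in all 4 libraries that had both: Tuba1a, Tuba1c, Tubb2a, Tubb2b and Tubgcp6. Smaller shifts of 1 sign in all 4 libraries were seen as well, among them those of Tuba1b (set B minus set A, log2 -0.26 to -0.19), Camsap3 (-0.33 to -0.15) and Ttll3 (0.11 to 0.41). The log2 difference of Ttll3 between the cell types was 2.34 within set A and 2.20 within set B, and the call held in both.

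Tubb2b moved most. Its lanes lay at 4.93 to 7.34 RPKM in set A and 32.1 to 35.6 RPKM in set B of pillar cells, and at 9.01 to 9.89 RPKM and 55.3 to 56.9 RPKM in Deiters' cells. Within either set the Deiters' lanes were above the pillar lanes, whereas the library means (21.5, 32.8 and 19.9 RPKM against 33.4, 32.2 and 9.35 RPKM) overlapped and gave a log2 difference of 0.16 ± 0.51 with a limma adjusted p of 0.79. Tubb2a moved in the opposite direction, from 151 to 152 RPKM in set A down to 114 to 121 RPKM in set B of pillar cells. The sum of Tubb2a and Tubb2b did not shift in this way: it was 156 to 159 RPKM in set A and 146 to 156 RPKM in set B of pillar cells, and 231 to 239 RPKM and 228 to 229 RPKM in Deiters' cells.

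The same exchange was seen among the Tuba1 genes. Tuba1c was at 73.8 to 74.0 RPKM in set A and 36.3 to 39.5 RPKM in set B of pillar cells, and at 124 to 129 RPKM and 63.9 to 70.5 RPKM in Deiters' cells. Tuba1a rose from set A to set B by 0.39 on the log2 scale, on average over the 4 libraries. The sum of Tuba1a, Tuba1b and Tuba1c was 942 to 997 RPKM over all pillar lanes and 1464 to 1551 RPKM over all Deiters' lanes. Fitted on set A alone, Tuba1c had a log2 difference of -0.78, and on set B alone -0.85, so that its higher level in Deiters' cells held in both sets but the 2-fold call did not. In windows of 100 bases, 50.0% of the Tuba1a transcript, 65.6% of Tuba1b and 53.4% of Tuba1c occurred unchanged in transcripts of other genes. So did 35.9% of Tubb2a and 26.1% of Tubb2b. The single values of these 5 genes are uncertain, and these shares do not measure by how much. Windows were matched on either strand, so the shares of different genes are not of 1 kind. Those of Tuba4a (46.7%) and Tubgcp6 (8.1%) came from Stk16 and Selenoo, whose exons overlap theirs on the opposite strand. That of Tubb4b (30.6%) came mainly from the pseudogene Tubb4b-ps1. Tuba4a and Tubb4b did not move with the sets, while Tubgcp6 did. The cause of the shifts was not tested.

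**Figure D4:**
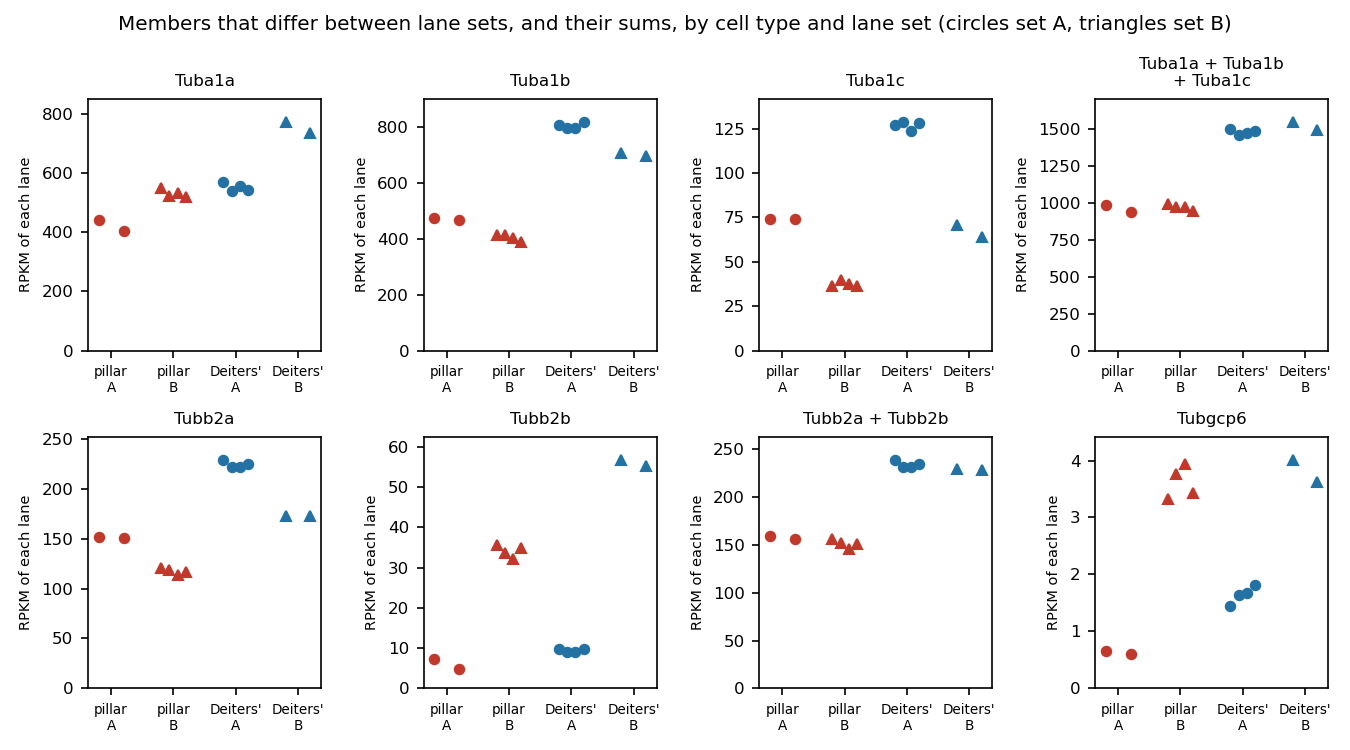
RPKM of each of the 12 lanes for Tuba1a, Tuba1b, Tuba1c, Tubb2a, Tubb2b and Tubgcp6 and for the sums of the Tuba1 and of the Tubb2 genes, split by cell type and lane set. Tubb2b lies at 4.93 to 7.34 RPKM in set A and 32.1 to 35.6 RPKM in set B of pillar cells, while the sum of Tubb2a and Tubb2b stays between 146 and 159 RPKM.

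Gamma tubulin starts new microtubules within a ring complex. Tubg1, the gamma tubulin of all dividing cells, was at 32.9, 33.6 and 33.6 RPKM in pillar libraries and 39.0, 37.5 and 37.3 RPKM in Deiters' libraries. The groups did not overlap, yet the log2 difference was only -0.18 ± 0.03 (limma adjusted p = 0.0012). Tubg2, a copy best known from brain, was at 4.38, 4.15 and 3.78 RPKM against 9.78, 9.47 and 9.48 RPKM and was called higher in Deiters' cells with a log2 difference of -1.21 ± 0.06 (limma adjusted p = 7.5e-06). A share of 4.2% of the 100-base windows of Tubg2 occurred in Tubg1.

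Limma called 0 of the 5 gamma-tubulin complex proteins; at an unadjusted p under 0.05, 1 lay on the pillar side and 3 on the Deiters' side, beside 36.6% and 38.3% of all genes. Tubgcp2 was the most abundant at 17.3 ± 0.664 RPKM in pillar cells against 13.4 ± 0.132 RPKM in Deiters' cells, and Tubgcp3, Tubgcp4 and Tubgcp5 lay between 2.52 and 5.05 RPKM in both. Tubgcp6 was at 2.62 ± 1.06 RPKM and 2.37 ± 0.542 RPKM with lanes of 0.607 to 0.661 RPKM in set A and 3.32 to 3.94 RPKM in set B of pillar cells, and it was called higher in Deiters' cells only when set A was fitted alone. Of the tubulins of centrioles, Tubd1 was at 1.82, 2.02 and 2.09 RPKM in pillar libraries and 5.29, 4.71 and 5.36 RPKM in Deiters' libraries. This was a clear separation, with a log2 difference of -1.33 ± 0.08 (limma adjusted p = 1.7e-05). Tube1 was at 1.22 ± 0.158 RPKM and 0.834 ± 0.0396 RPKM and did not reach 2-fold.

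Among the 5 folding cofactors, which assemble alpha and beta tubulin into dimers, limma called 0, with 1 on the pillar side and 2 on the Deiters' side at an unadjusted p under 0.05 (36.6% and 38.3% of all genes). Tbca, which holds newly folded beta tubulin, had 83.4, 74.5 and 70.6 RPKM in pillar libraries and 126, 147 and 129 RPKM in Deiters' libraries (log2 difference -0.82 ± 0.08, limma adjusted p = 1.4e-04). Tbcc, which releases the finished dimer, lay the other way with 53.2, 48.6 and 52.8 RPKM against 35.1, 33.8 and 36.2 RPKM (log2 difference 0.56 ± 0.05, limma adjusted p = 5.7e-05). Neither pair of groups overlapped. Tbcb, which binds alpha tubulin, was level at 85.6, 77.8 and 75.9 RPKM against 82.6, 80.3 and 75.7 RPKM, with overlapping libraries and a log2 difference of 0.00 ± 0.05. Tbcd was at 6.78 and 6.97 RPKM and Tbce at 5.34 and 8.66 RPKM.

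Of the 11 Ttll ligase genes tested, 2 were called in each direction (18.2%, beside 14.7% of all genes on the pillar side and 14.0% on the Deiters' side). Ttll3, a glycylase that places the first glycine on the tubulin tail, was the most abundant of them in pillar cells. It had 74.5, 75.6 and 74.9 RPKM in the pillar libraries and 15.3, 14.9 and 14.7 RPKM in the Deiters' libraries. The values within each cell type were almost equal, and the mean was 5.01-fold higher in pillar cells (log2 difference 2.32 ± 0.03, limma adjusted p = 3.7e-08). Its exons share 283 bases, 5.6% of its length, with Arpc4 on the same strand, and Arpc4 had 54.2 to 65.2 RPKM in pillar libraries and 62.7 to 66.5 RPKM in Deiters' libraries.

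Ttll7, which adds glutamates mainly to beta tubulin, had 1.37, 1.44 and 1.40 RPKM in pillar libraries and 0.303, 0.427 and 0.286 RPKM in Deiters' libraries. All pillar values were above all Deiters' values, a 4.14-fold difference of the means with a log2 difference of 1.79 ± 0.15 (limma adjusted p = 6.1e-05). Ttll9 and Ttll11, both of the glutamate-adding branch, were near the detection limit and passed the minimum only through Deiters' cells. Ttll9 had 1, 0 and 0 reads in pillar libraries and 11, 16 and 12 reads in Deiters' libraries, a ratio of 38.3 with a 95% exact counting interval from 6.49 to 1553 (log2 difference -1.46 ± 0.19, limma adjusted p = 4.5e-04). Ttll11 had 1, 3 and 6 reads against 31, 16 and 20 reads, a ratio of 6.59 with an interval from 3.37 to 14.4 (log2 difference -1.40 ± 0.24, limma adjusted p = 0.002). These intervals cover counting error only. Both calls were lost when lane 2 was used alone, that of Ttll11 also within lane set A and that of Ttll9 within lane set B.

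The other Ttll genes did not pass. Ttll1, the catalytic subunit of a polyglutamylase complex, was at 17.6 ± 0.559 RPKM in pillar cells, below Ttll3, and at 18.9 ± 0.806 RPKM in Deiters' cells, above it. Ttll12, a member without known ligase activity, was at 5.64 and 9.89 RPKM, and Ttll10, a glycylase that extends chains, at 2.50 and 2.62 RPKM. Ttll4, Ttll5, Ttll6 and Ttll13, all glutamate ligases, lay between 0.166 and 1.81 RPKM. Ttll2 and Ttll8 were listed at 0 in every library, so of the glycylases Ttll3 and Ttll10 were detected.

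Of the 9 structural microtubule-associated proteins, 2 were called higher in pillar cells (22.2%, beside 14.7% of all genes) and 0 in Deiters' cells (beside 14.0%). Map4, the form of most non-neuronal cells, had 3.82, 3.76 and 4.08 RPKM in pillar libraries and 1.57, 1.61 and 1.46 RPKM in Deiters' libraries (log2 difference 1.28 ± 0.07, limma adjusted p = 1.2e-05). Map2, best known from dendrites, had 3.11, 3.10 and 3.46 RPKM against 1.44, 1.5 and 1.44 RPKM (log2 difference 1.09 ± 0.08, limma adjusted p = 2.8e-05). Neither gene had overlapping libraries. The call of Map2 was lost under quantile normalization, where its log2 difference was 0.94. Both calls were lost with a pseudocount of 1 RPKM (log2 difference 0.78 for Map2 and 0.94 for Map4).

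Map1b, a protein of growing axons, was the most abundant of this group at 31.9 ± 0.816 RPKM in pillar cells against 26.1 ± 1.02 RPKM in Deiters' cells. Map1s was level at 9.74 and 9.69 RPKM, and Map7, which recruits kinesin to the microtubule, was at 7.10 and 4.23 RPKM. Mapt, the gene of tau, was at 1.28 and 1.36 RPKM with overlapping libraries. Map1a, Map6 and Map9 lay between 0.632 and 1.33 RPKM. None of these 7 genes reached 2-fold.

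Stathmins bind free tubulin dimers and destabilise microtubules. Stmn1, the widespread form, was among the most abundant transcripts of both cell types. It had 254, 247 and 251 RPKM in pillar libraries and 476, 492 and 474 RPKM in Deiters' libraries. The 2 groups lay far apart beside their spread, with a log2 difference of -0.94 ± 0.03 (limma adjusted p = 5.4e-07), just short of 2-fold, and ranks of 177 and 82 among all features. Of its 100-base windows, 26.1% also occurred in Gm11223.

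Stmn2, a stathmin of growing neurites, had 24, 25 and 13 reads in pillar libraries and 66, 82 and 78 reads in Deiters' libraries, or 0.212, 0.234 and 0.121 RPKM against 0.546, 0.759 and 0.747 RPKM. The groups did not overlap, with a log2 difference of -1.45 ± 0.21 (limma adjusted p = 9.0e-04). The neuronal markers given beside Tubb3 apply here too, and their part was not tested. Stmn3, also neuronal, was at 11.5 ± 0.697 RPKM and 19.8 ± 1.51 RPKM without reaching 2-fold, Stmn4 was at 0.847 and 0.756 RPKM, and Stmnd1 was listed at 0.

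Proteins of the microtubule ends gave 1 call. Of the 3 Camsap genes tested, 1 was called on the Deiters' side (33.3%, beside 14.0% of all genes), and of the 5 plus-end genes 0. Camsap2, which caps and holds the minus ends of microtubules that are free of the centrosome, had 4.28, 5.06 and 5.03 RPKM in pillar libraries and 21.8, 20.3 and 21.1 RPKM in Deiters' libraries. No library came near the other group, and the log2 difference was -2.12 ± 0.07 (limma adjusted p = 1.4e-06). Camsap1 (1.84 and 2.01 RPKM) and Camsap3 (2.90 and 3.03 RPKM), the other minus-end binders, had overlapping libraries.

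At the plus end, Mapre1, which encodes the end-binding protein EB1, had 30.8, 30.6 and 29.2 RPKM in pillar libraries and 18.7, 18.1 and 18.7 RPKM in Deiters' libraries. These did not overlap, and the log2 difference was 0.70 ± 0.03 (limma adjusted p = 5.5e-06). Mapre2, Mapre3, Clasp1 and Clasp2 lay between 2.52 and 10.7 RPKM, with log2 differences from -0.35 to 0.33. Tppp, a tubulin polymerisation promoter best known from oligodendrocytes, had 6.24, 7.55 and 7.49 RPKM against 4.31, 3.91 and 4.40 RPKM (log2 difference 0.74 ± 0.09, limma adjusted p = 3.9e-04). Tppp3 was at 1.66 and 2.28 RPKM. Tppp2 had 3 reads in all, all from Deiters' libraries, and was not tested.

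Other genes of the microtubule system were counted by lists of their own, in the same fit, and each count stands beside the 14.7% and 14.0% of all genes called on the pillar and the Deiters' side, or the 36.6% and 38.3% at an unadjusted p under 0.05. Tubulin-modifying enzymes outside the Ttll family gave 0 limma calls of 12 on the pillar side and 1 on the Deiters' side, Agbl2, a carboxypeptidase that trims tubulin tails, at 0.00249 and 0.338 RPKM (log2 difference -2.10). Agbl2 passed the minimum through Deiters' cells alone and could be called on that side only. At an unadjusted p under 0.05 the counts were 1 and 7 of 12. The chaperones that fold tubulin gave 0 and 1 limma calls of 17, and 3 and 8 of 17 at an unadjusted p under 0.05; the call was the prefoldin subunit Pfdn4 at 1.95 and 5.24 RPKM.

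Anchoring and nucleation factors gave 5 calls of 19 on the pillar side (26.3%, beside 14.7% of all genes) and 2 on the Deiters' side (10.5%, beside 14.0%). Nin encodes ninein, which anchors minus ends, and had 13.9, 14.2 and 14.2 RPKM in pillar libraries and 2.73, 3.21 and 2.73 RPKM in Deiters' libraries (log2 difference 2.25 ± 0.07, limma adjusted p = 9.9e-07). Akap9, a scaffold that holds gamma-tubulin complexes at the Golgi and centrosome, was at 14.7 ± 0.409 and 3.48 ± 0.0228 RPKM (log2 difference 2.05). Haus4, a subunit of augmin, lay the other way at 4.22 ± 0.197 and 13.8 ± 0.431 RPKM (log2 difference -1.69). Haus6 was called on that side too, but Haus1, Haus2, Haus3, Haus5, Haus7 and Haus8 were not called.

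The crosslinkers of microtubules to actin, Dst (3.45 and 0.767 RPKM) and Macf1 (4.34 and 1.30 RPKM), were higher in pillar cells, and the list of plus-end and crosslinking proteins had 3 calls of 19 on the pillar side (15.8%) and 2 on the other (10.5%). Gtse1, a plus-end protein of dividing cells, was among the latter, listed at 0 in all pillar libraries and with a mean of 0.503 RPKM in Deiters' cells, through which alone it passed the minimum. Severing enzymes gave 2 of 8 in pillar cells (Fign and Katnal2) and 1 in Deiters' cells (Fignl1), with means from 0.0427 to 0.447 RPKM; Katnal2 and Fignl1 each passed the minimum only in the cell type where they were higher. Further microtubule-associated proteins gave 6 of 19 (31.6%) in pillar cells, among them Dclk1 (3.98 and 1.58 RPKM) and Map7d2 (4.58 and 1.55 RPKM), and 2 (10.5%) in Deiters' cells, among them Eml2 (1.37 and 3.28 RPKM). Of these 8 calls, those of Mid1 and Ckap2 rest on genes that passed the minimum in 1 cell type only.

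Motor genes were called in both directions. Of 36 kinesin genes tested, 5 were higher in pillar cells (13.9%, beside 14.7% of all genes), while 8 were so in Deiters' cells (22.2%, beside 14.0%). Of the latter, Kif2c, Kif17, Kif23 and Kifc1 had pillar means of at most 0.00514 RPKM and passed the minimum only through Deiters' cells, and the others were Kif1a (1.70 and 3.98 RPKM), Kif3b (1.03 and 3.15 RPKM), Kif9 and Kif16b. Kifap3, the adaptor of kinesin-2, was at 72.8 ± 1.95 RPKM in pillar cells against 13.5 ± 0.661 RPKM in Deiters' cells (log2 difference 2.43 ± 0.04, limma adjusted p = 1.3e-07). Kif5a, a kinesin-1 heavy chain of neurons, was at 13.8 and 1.96 RPKM, and Kif21a at 29.2 and 9.70 RPKM. Of 25 dynein and dynactin genes, Dync1i1 (25.9 and 6.49 RPKM) and the adaptor Bicd2 (13.2 and 4.29 RPKM) were higher in pillar cells and the light chain Dynlrb2 (3.65 and 22.7 RPKM) in Deiters' cells, so that 2 and 1 of 25 were called. The 10 cycling-cell markers summed to 12.1 to 12.9 RPKM in pillar libraries and 8.75 to 9.01 RPKM in Deiters' libraries. Of the 9 of these that were tested, Plk1 was called higher in pillar cells (4.05 and 0.487 RPKM). Aurkb (0 and 0.788 RPKM) and Ccna2 (0.574 and 1.35 RPKM) were called higher in Deiters' cells, and Aurkb passed the minimum only through them. The 9 markers of motile cilia summed to 22.6 to 24.8 RPKM and 12 to 12.1 RPKM. Of the 7 tested, 5 were called on the pillar side (71.4%, beside 14.7% of all genes) and Tekt2 on the other (14.3%, beside 14.0%). Ccdc39, Foxj1 and Spag6l passed the minimum only through pillar cells and Tekt2 only through Deiters' cells, so each could be called on that side only. The hair cell markers given above were higher in pillar libraries, on the same side as Tuba8, Tubb6, Ttll3, Ttll7, Map2, Map4 and the pillar-side motors, and their part in these differences was not tested.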

How the data were processed

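RNA from pillar and Deiters' cells was amplified with a low-input SMARTer kit, made into Nextera libraries and sequenced on an Illumina HiSeq instrument. With CLC Genomics Workbench, the authors aligned the paired-end reads of each lane to build mm10 (GRCm38), and they deposited RPKM values for 48440 features in 12 lane columns; the annotation release, the rule for reads that map to several genes and the use of strand are not given in the sources used here. Because RPKM values are not counts, no count model was used.

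Lanes were assigned to libraries by the labels and averaged. limma 3.58.1 (R 4.3.3; lmFit, eBayes with a variance trend) was fitted to log2(RPKM + 0.1) of the 17188 genes whose mean exceeded 0.1 RPKM in at least 1 cell type, and p-values were adjusted over all of them. The script was tested on simulated data. The members and lists were chosen with earlier results of these data known. Values in every library were given for called genes, the 12 most abundant genes and the leading gene of each remaining role, and from each further list for up to 3 called genes with the smallest p.

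All 70 genes were matched by identifier to GENCODE M21, which gave coordinates, overlaps and coding sequences; coding identity came from global alignments in Biopython 1.88 and shared sequence from windows of 100 bases in annotated transcripts. Reads were worked out from the RPKM steps and exon lengths; 71.9% of 20010 features gave whole numbers within 0.01 in every lane, so they served for depth and, where a gene had few reads and its own values came out whole, for its read numbers, and no count test was run on them. Alternatives to the pseudocount, filter, scaling, lanes, lane sets, replicate block, variance trend, call rule and libraries were computed. Cell type marker lists were summed per library, also without genes chosen after their values were seen. Protein sequences were not used here, and the coding ends of some tubulins are not reported here.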

Additional observations from a re-analysis of the deposited data

How the results depend on the processing

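For the 27 genes given library by library, 18 alternatives gave 481 log2 differences, of which 450 kept their direction and call, 26 lost the call in the same direction and 5 changed sign. Stmn2, Ttll9, Ttll11 and Tubb1 gave no value with a minimum of 1 RPKM, nor did Tubb1 without Deiters replicate 1. All 5 sign changes were of Tbcb, whose log2 difference of 0.00 became -0.04 with lane 2 alone and -0.01 within either lane set, and ranged from -0.05 to 0.04 when 1 library was left out.

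With a pseudocount of 1 RPKM, 3 genes were called in pillar cells (Map2, Map4 and Ttll7 were lost) and 5 in Deiters' cells (Stmn2, Ttll9, Ttll11 and Tubb1 were lost). A minimum mean of 1 RPKM left 5 in Deiters' cells by removing those 4 genes from the test. Lane 2 alone left 5, with Ttll9, Ttll11, Tuba1c and Tubb1 lost. At an adjusted p of at most 0.05 with no fold minimum the counts were 15 and 33. Leaving out 1 library in turn gave 6 in pillar cells each time and 7 to 9 in Deiters' cells. The Deiters' counts included Tubb5, gained without pillar replicate 3, and Tppp2, which passed the minimum and was gained without Deiters replicate 1. Tuba1c was lost without pillar replicate 2 (log2 difference -0.95) or Deiters replicate 3 (-0.99). Quantile normalization, which moved the median of all genes by -0.0418 on the log2 scale, lost Map2 and Tubb1. The cause of these losses was not tested.

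Deviations of same-numbered libraries correlated at -0.286, 0.380 and 0.318, and pillar library 1 correlated best with Deiters' library 3 (0.325). Pillar library 2, all in lane set B, correlated at -0.407 with Deiters' library 3, all in set A. Because the lane sets were unevenly spread over the libraries, these values cannot show whether mice were shared. With a replicate block, 6 genes were called in pillar cells and 8 in Deiters' cells, Tubb1 being lost (-1.25, limma adjusted p = 0.015).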

Other observations

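Markers of blood cells and glia were detected in both kinds of library, at different summed levels. Neutrophil markers, 8 in number, summed to 501 to 520 RPKM in pillar libraries and 250 to 274 RPKM in Deiters' libraries. Of these, 6 were called higher in pillar cells (75.0%, beside 14.7% of all genes). Elane (10.1 and 58.4 RPKM) and Mpo (6.96 and 39.4 RPKM) were called higher in Deiters' cells (25.0%, beside 14.0%). The 8 markers of myelinating glia summed to 529 to 549 RPKM and 246 to 270 RPKM, but S100b (458 and 177 RPKM), which is also on the pillar cell list, made up most of this. Without S100b and Sox10 (58.9 and 66.1 RPKM), left out after their values were seen, the remaining 6 summed to 18.8 to 20.5 RPKM and 12.7 to 13.3 RPKM. The 7 red cell genes summed to 4805 to 4883 RPKM and 2975 to 3459 RPKM, with Alas2 alone called among them. Markers of macrophages also had higher sums in pillar libraries (112 to 118 RPKM against 55.5 to 57.5 RPKM). So did those of B and plasma cells (23.8 to 25.4 RPKM against 5.31 to 5.83 RPKM), in contrast to the platelet markers. Of the 6 macrophage markers, Lyz2 (101 and 42.8 RPKM) and Adgre1 were called, and Adgre1 passed the minimum only through pillar cells. The 7 general supporting cell markers summed to 1899 to 1929 RPKM in pillar libraries and 2619 to 2701 RPKM in Deiters' libraries, although Sox2, Slc1a3 and Otoa were called higher in pillar cells.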
